A study of Bos taurus with 8 samples.

Results

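Ribosomal proteins of the cytosol were followed here on every probe that the array names for them. The probes were chosen by gene name alone, as non-control probes named RPL or RPS with a number and at most 1 of the letters A, X and L, RPLP0 to RPLP2, or RPSA. This gave 295 probes of 79 genes, 178 probes of 47 large-subunit genes and 117 probes of 32 small-subunit genes, out of 51282 probes and 32429 gene names on the array. Several probes of a gene read the same mRNA and are not replicates of a condition.

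The cells came from bovine eyes and are labelled as primary Müller glia, the radial support cells of the retina, grown for 18 to 21 days in vitro. Each of 8 samples was hybridised to its own one-colour array: 2 untreated controls (A and B), 3 samples with the HIV-1 transactivator TAT at 100 ng/ml (A, B and C) and 3 with the HIV-1 envelope protein gp120 at 60 ng/ml (A, B and C), collected after 24 h. The protocol text shared by all samples names both proteins and calls the cells astrocytes in its RNA step, so the groups rest on the sample titles. The labels do not say whether the letters stand for separate cultures or animals, and the p-values below measure only the spread between these arrays. Because these are bulk samples, fewer cells of a type and less RNA per cell cannot be told apart.

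A ribosome joins a small subunit, which reads the mRNA, to a large subunit, which forms the peptide bond and holds the tunnel through which the new protein leaves. The mRNAs of its proteins carry a terminal oligopyrimidine tract at the start through which TOR signalling sets how well they are translated. Because these mRNAs are abundant in nearly every cell, several of them, such as RPLP0, RPL13A and RPS18, serve as reference genes in PCR.

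Levels are log2 processed signal minus the array's 75th percentile, so positive values lie above that percentile. A spot is called well above background by the scanner software, and that share was 55.46% to 64.62% of spots per array. A probe entered the tests if all arrays of some group were well above background, which held for 31589 probes (61.6%). The arrays lay on 1 slide in 2 rows, with control A, control B, TAT A and gp120 A in row 1, and gp120 B and gp120 C were scanned at another detector voltage (471 in place of 431). Row and scan are thus partly confounded with treatment. Of the Müller glia marker list 9 of 13 genes on the array were above background on all 8 arrays, CA14 on none. The lists for microglia (10 of 11), fibroblasts (8 of 9), pericytes (6 of 6) and endothelium (5 of 6, CDH5 on no array) were also detected. Fewer were detected for astrocytes (3 of 5) and pigment epithelium (3 of 6, TYR on no array). Of the photoreceptor and neuron genes 3 of 9 were, with GAD1 on no array.

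Ribosomal protein mRNAs were among the brightest features of these cells. Of the 295 probes 274 were tested (167 of the large and 107 of the small subunit, from 78 genes), and 268 (90.8%) were well above background on all 8 arrays, against 53.8% of all probes. Of the tested probes 233 lay among the brightest 10% of tested probes. RPL3L, a paralog of RPL3 known from striated muscle, was the gene with no probe above background on any array. The other 19 probes that were not tested target GenBank transcripts of genes whose further probes were bright. RPS6, for example, had 1 such probe between -8.29 and -7.10 on the 8 arrays beside 7 tested probes. RPL10L, a paralog of RPL10 known from testis, was above background on 4 of 8 arrays.

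The sequences below are shown because probes differed widely in how much they varied between arrays. They did so across genes (first set) and between overlapping probes of RPL3 (second set, SDs of 0.35 and 0.83). The overlapping RPS6 probes of the second set both varied widely, with SDs of 0.76 and 0.88. All are as listed for the array, in mRNA sense, 5′ to 3′, with positions of the array's build, Btau_3.1. In the first set capitals mark runs of 6 or more purines. The RPL17 probe (chr7:64178017-64178076, plus strand) and the RPL10A probe (chr23:9695010-9695069, plus strand) varied widely between arrays, with SDs of 0.72 and 0.63. The RPS14 probe (chr7:61245013-61245565, minus strand, across exons) and the RPL10 probe (chrX:23718039-23718098, plus strand) varied little, with SDs of 0.14 and 0.13. The RPL24 probe (chr1:47168497-47171194, minus strand, across exons) is rich in purines but varied little (SD 0.23), and the RPL22 probe (chr16:44353116-44353175, plus strand), whose purine run encodes the acidic tail of the protein, differed between letters.
RPL17: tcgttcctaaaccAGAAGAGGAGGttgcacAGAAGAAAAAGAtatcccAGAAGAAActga
RPL10A: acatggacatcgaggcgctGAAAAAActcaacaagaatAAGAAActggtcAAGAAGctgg
RPS14: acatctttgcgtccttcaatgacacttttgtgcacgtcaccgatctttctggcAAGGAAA
RPL10: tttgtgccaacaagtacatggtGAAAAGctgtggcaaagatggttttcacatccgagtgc
RPL24: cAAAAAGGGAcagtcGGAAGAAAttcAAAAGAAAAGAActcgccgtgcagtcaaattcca
RPL22: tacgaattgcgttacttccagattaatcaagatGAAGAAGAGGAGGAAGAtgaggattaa

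In the second set capitals mark bases that differ between overlapping probes of 1 gene. The RPS6 probes (chr8:26436478-26436631 and chr8:26436481-26436634, plus strand, across exons) overlap by 57 bases and differ at 3 of them. They start at bases 715 and 718 of the transcript. For RPL3 a stretch of at most 30 bases is shown for the probes at bases 1220 and 1222 of the transcript (chr5:117900269-117900328 and chr5:117900270-117900326, minus strand). Over its whole length the second RPL3 probe has 3 bases that the first lacks.
RPS6 at 715: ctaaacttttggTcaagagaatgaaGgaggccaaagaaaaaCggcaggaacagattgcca
RPS6 at 718: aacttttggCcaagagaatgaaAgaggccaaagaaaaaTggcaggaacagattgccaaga
RPL3 at 1220: taatagaacagattgtacagctggtaga
RPL3 at 1222: taatagaacaCgattgtacaCgctggtaga

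Ribosomal protein mRNAs differed widely between the 2 untreated arrays. The median level of the 274 probes was 5.87 in control A and 5.17 in control B. It was 5.73, 5.66 and 5.42 in TAT A, B and C, and 5.45, 5.84 and 5.45 in gp120 A, B and C. By this median all 6 treated arrays lay between the controls. By the median deviation of each probe from its own mean, gp120 B (0.28) was as high as control A (0.25), and control B was the lowest (-0.30). Control B was below control A for 246 of 274 probes, with a median difference of -0.55 against -0.06 for all tested probes. Both subunits showed it, with -0.52 for 167 large-subunit and -0.59 for 107 small-subunit probes. For 60 of 274 probes (21.9%) all 6 treated values fell between the control values, against 3.69% of all probes and 6.05% of the other probes in the brightest 10%. Control B was the lowest of the 8 arrays for 148 ribosomal protein probes (54%) and for 8.82% of all probes. With 1 array at each end there is no test of this difference. Its size follows the scaling: the median of control B minus control A was -0.48 when arrays were scaled to their median, -0.22 after quantile normalization and -0.23 after normexp and quantile, with control A higher for 201 to 240 probes.

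**Figure D1:**
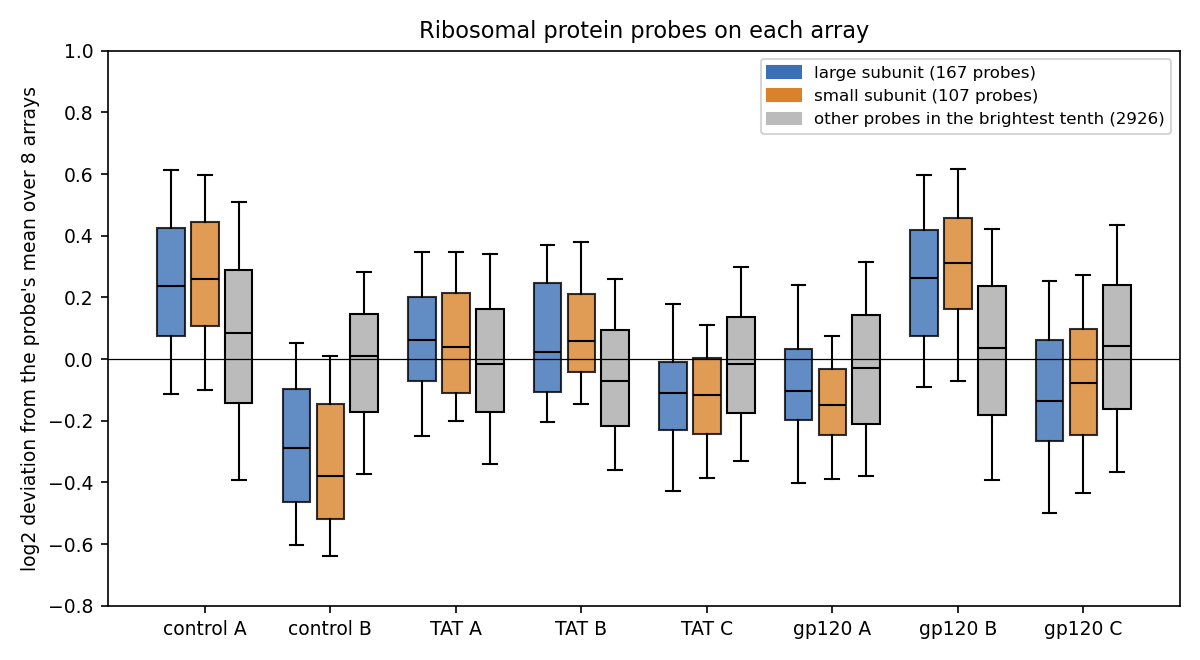
Deviation of each probe from its mean over the 8 arrays (log2), by array, for 167 large-subunit probes, 107 small-subunit probes and 2926 other probes in the brightest 10%. Boxes span the quartiles, lines mark medians and whiskers reach the 10th and 90th percentiles. Both subunits sit high in control A and gp120 B and low in control B, where the other bright probes have medians of 0.08, 0.04 and 0.01.

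Taken by gene, the mean of the probes was higher in control A than in control B for 75 of 78 genes. RPL22, RPL37A and RPS29 were the others. Of 71 genes with 2 or more tested probes, 47 were higher in control A on every probe and 0 were higher in control B on every probe. Relative to the gene means, 69 genes were above 0 in control A and 70 in gp120 B, but 5 in control B, 14 in gp120 A and 17 in TAT C. Letters do not order these arrays, since control A and gp120 B were both high while gp120 A and control B were both low. The first principal component of the 274 probes held 48.4% of their variance and ran from control A (5.93) and gp120 B (4.18) to TAT C (-4.13) and control B (-5.61). The Müller glia marker list was also high in control A and gp120 B and low in control B, with median deviations of 0.16, 0.19 and -0.19. Elsewhere it lay between -0.12 and 0 and did not follow the order. For instance, it was 0 in gp120 C (component -3.51) and -0.1 in TAT B (component 2.44). The microglia list had 0.20 and -0.27 in the controls but -0.29 in gp120 B, and the pericyte list -0.98 and 0.32 in the controls. The part of these lists in the result was not tested.

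**Figure D2:**
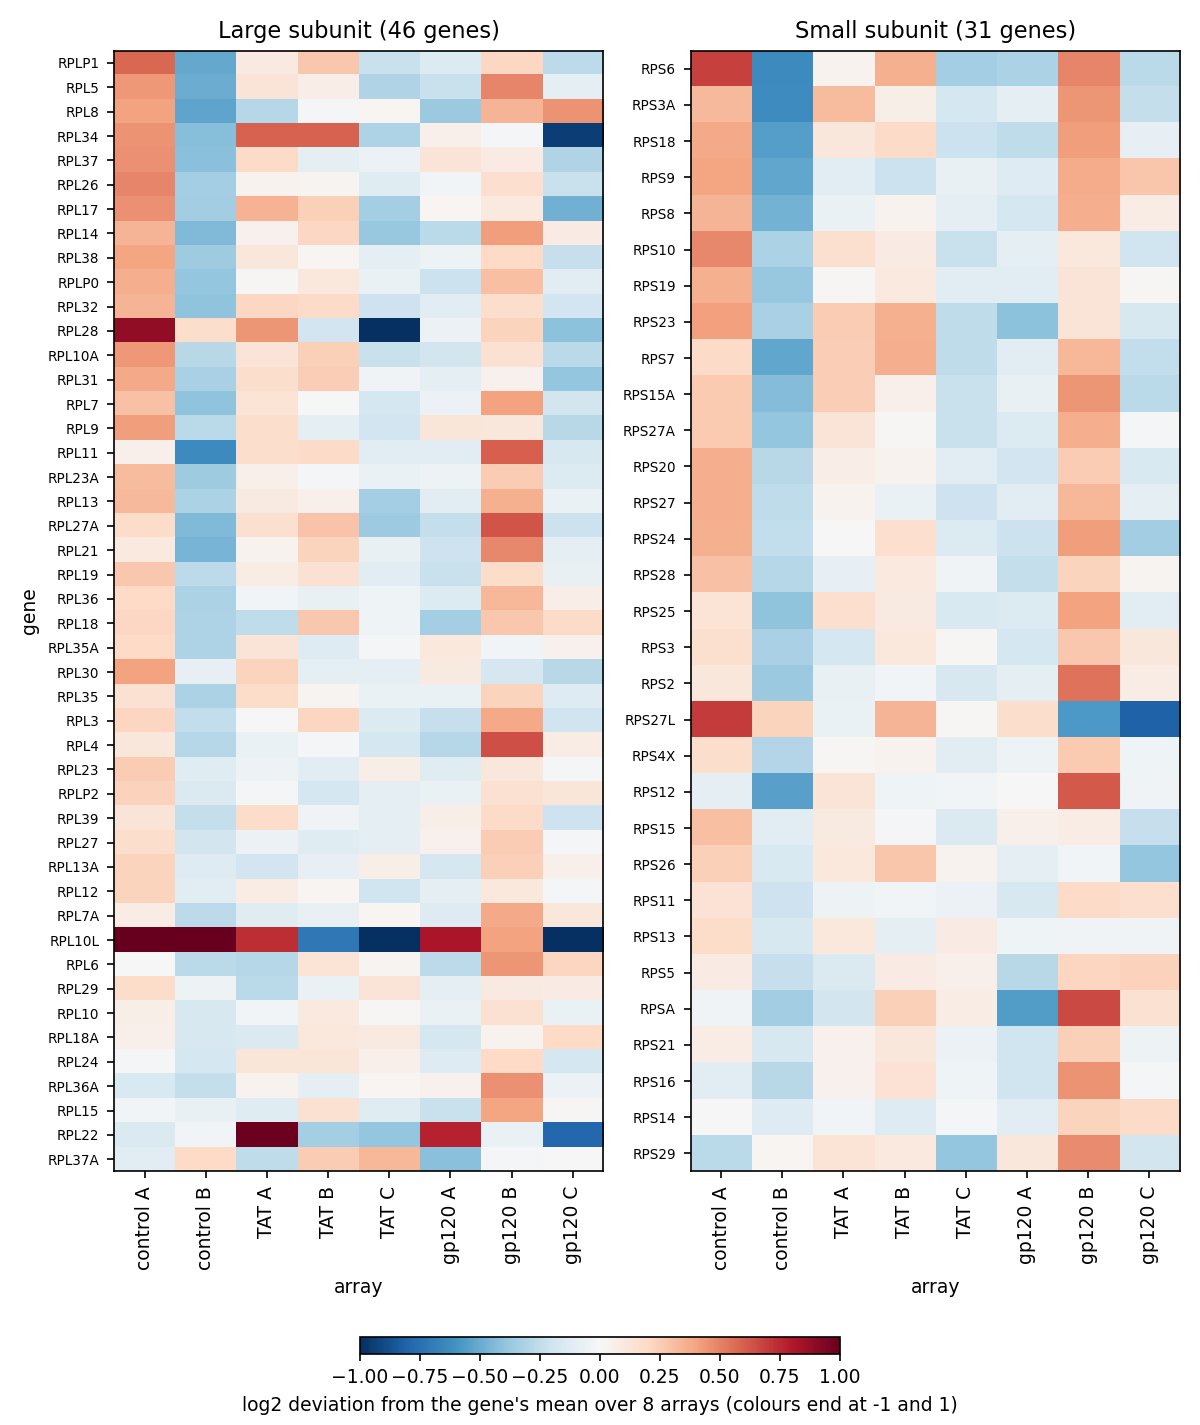
Mean log2 deviation of each gene's tested probes on the 8 arrays (columns), with 46 large-subunit genes on the left and 31 of the 32 small-subunit genes on the right, ordered by control A minus control B. Red is above and blue below the gene's own mean, and colours end at -1 and 1. Most rows are red in control A and gp120 B and blue in control B, whereas RPL10L, RPL22, RPL37A and RPS27L follow other patterns.

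The control difference ran through each functional region. Its median (control A minus control B) was 0.56 over 20 probes of the stalk proteins RPLP0, RPLP1, RPLP2 and RPL12, which recruit the translation factors that use GTP. It was 0.79 over 6 probes of RPL5 and RPL11, which carry the 5S RNA and can bind MDM2. It was 0.49 for RPL3, RPL8 and RPL10 near the catalytic centre, and 0.68 for 8 proteins that line the tunnel or its exit. In the small subunit it was 0.57 for 14 proteins of the head and 0.68 for 17 of the body and platform. The genes used as PCR references (10 genes, 29 probes) had 0.63 and the genes mutated in Diamond-Blackfan anaemia (12 genes, 48 probes) 0.53. These lists were thus all above the median of all probes, with control A the higher array in each.

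RPS6, the substrate of S6 kinase, had the widest difference between the controls of the 78 genes, 1.32 by the mean of its probes. Its gene mean deviated by 0.68 in control A, -0.64 in control B, 0.04, 0.36 and -0.34 in TAT A, B and C, and -0.32, 0.49 and -0.27 in gp120 A, B and C. The probe at base 718 read 3.95 and 1.43 in the controls, 2.67, 3.1 and 1.83 with TAT, and 2.0, 2.77 and 1.47 with gp120. RPLP0, a scaffold of the stalk and a common PCR reference, read 7.26 and 6.33 in the controls, 6.93, 7.19 and 6.56 with TAT and 6.54, 7.49 and 6.54 with gp120 on its probe at base 987. The RPLP0 probe at base 109 hardly moved, with 2.26 and 2.34, then 2.16, 2.12 and 2.45, then 2.18, 2.11 and 2.41. For both RPLP0 probes the treated arrays overlapped the controls. RPL13A, another reference gene, read 7.10 and 6.25 in the controls, 6.42 to 6.59 with TAT and 6.39 to 6.94 with gp120 on its probe at base 603, while its probe at base 160 was lower in control A (4.34) than in control B (4.49). RPS18 was lower in control B than on any other array on all 3 tested probes.

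TAT left the ribosomal protein mRNAs near their control level. The median difference from control was 0.02 over 274 probes (0.00 for the large and 0.05 for the small subunit), against -0.03 for all tested probes, and 146 probes were higher and 128 lower. Above 0 were 53.3% of these probes and 45.3% of all. With limma 0 of 31589 probes passed an adjusted p of 0.05 (0%), and 1 ribosomal protein probe had an unadjusted p under 0.05 (1.37% of all probes did). Differences past 0.5 in either direction were found for 9 probes (3.28%, against 14% of all). The groups did not overlap for 16 probes (5.84%, against 14.3% of all), of which 10 were higher (all probes 5.22%) and 6 lower (all probes 9.1%). The median 95% interval of a probe's difference reached 0.68 to each side, so a shift of that size in a single gene would be within the error. Leaving out control A moved the median to 0.29 and leaving out control B to -0.27, so its sign rests on which control is used.

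The probe with the smallest p for TAT was 1 of 3 for RPL24, a large-subunit protein at the bridge between the subunits. At base 490 it read 4.62 and 4.42 in the controls, 5.24, 5.24 and 5.01 with TAT, and 4.97, 5.55 and 4.92 with gp120. Every treated array lay above both controls, and TAT was higher by 0.65 ± 0.26 (SE, adjusted p = 1 with limma). The probes at bases 215 and 455 of the same mRNA differed from control by -0.01 and -0.07 with TAT. RPL3, next to the catalytic centre, gave 5.03 and 4.82 in the controls, 5.64, 5.51 and 5.34 with TAT and 5.61, 5.84 and 5.10 with gp120 at base 1220, a difference of 0.58 ± 0.27 (SE) for TAT. Its 6 other tested probes gave -0.15 to 0.12. RPS21 gave 0.64 ± 0.33 (SE) at base 297 and -0.16 to -0.06 on its 3 other probes. RPL21 (0.55), RPS3A (0.61) and RPL15 at base 1392 (0.33) were the other named probes with TAT above both controls.

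Among named probes that were lower with TAT, RPL10L read -4.11 and -4.43 in the controls and -4.80, -6.26 and -7.83 with TAT, with 1 of 3 TAT arrays (TAT A) well above background. The probe was tested because both controls were above background, and the difference (-2.03, or -1.29 with the letter as a block, adjusted p = 1 and 0.999 with limma) includes arrays that give only a bound. RPL12, which sits at the base of the stalk, read -0.53 and -0.48 in the controls and -0.95, -1.12 and -0.82 with TAT on a probe for a GenBank transcript, and its 5 RefSeq probes gave -0.28 to 0.25. RPS27L, a paralog of RPS27 and a target of p53, was lower by 0.82 on a probe that was above background on 5 of 8 arrays, while its other probes gave 0.01 and -0.29. RPS4X (-0.24), RPL10A (-0.21) and RPL28 (-1.32, on a probe above background on 4 arrays) complete the named probes. A probe enters the tests once all arrays of some group are above background, which favours lower values in the other groups. The RPL28 difference includes arrays that give only a bound, and the RPS27L difference of 0.82 can include them too. With the letter as a block 6 ribosomal protein probes had an unadjusted p under 0.05 (4.18% of all did) and 0 passed the adjusted threshold.

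gp120 gave a similar picture. The median difference from the same 2 controls was 0.06 (0.05 for the large and 0.11 for the small subunit, -0.01 for all probes), with 161 probes higher and 113 lower (58.8% above 0, against 48.6% of all). With limma 0 of 31589 probes passed an adjusted p of 0.05 (0%). An unadjusted p under 0.05 was found for 7 ribosomal protein probes (2.55%, against 4.3% of all) and for 11 with the letter as a block (7.5% of all). Differences past 0.5 were found for 23 probes (8.39%, against 22.7% of all). The groups did not overlap for 16 probes (5.84%, against 15.8% of all), 8 higher (all probes 7.41%) and 8 lower (all probes 8.41%). The median was 0.33 without control A, -0.21 without control B, 0.14 without gp120 A and -0.06 without gp120 B. With the scan as a block, which leaves gp120 A as the array set against the controls, it was -0.09.

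RPL15, a large-subunit protein mutated in Diamond-Blackfan anaemia, had the smallest p for gp120. Its probe at base 1392 read 1.08 and 1.24 in the controls, 1.58, 1.5 and 1.40 with TAT, and 1.61, 2.33 and 1.90 with gp120, a difference of 0.79 ± 0.26 (SE, adjusted p = 0.966 with limma) for gp120. Its 7 other probes, which lie on both sides of it in the transcript, gave -0.26 to 0.29. RPL24 at base 490 was higher by 0.63 ± 0.26 (SE) and RPL3 at base 1220 by 0.60 ± 0.27 (SE). RPS12 (0.83), RPL36A (0.87) and RPL35A (0.92) followed on probes for GenBank transcripts. The RefSeq probes of these 3 genes gave 0.26 and 0.44 for RPS12, 0.10 and 0.05 for RPL36A, and -0.53 to 0.24 for RPL35A.

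RPS27L was lower with gp120 on all 3 of its probes. The probe at base 51 read 0.81 and -0.58 in the controls, 0.39, 0.46 and -0.50 with TAT, and -0.14, -0.27 and -1.32 with gp120, a difference of -0.69. The probe at base 280 read 4.62 and 4.48, then 4.26, 4.07 and 4.45, then 4.53, 3.66 and 3.82, a difference of -0.54. The groups overlapped on both. On the third probe, a GenBank one, the groups did not overlap (-1.35 ± 0.48, SE, adjusted p = 0.966 with limma), but gp120 B and gp120 C were not above background. RPS26, a small-subunit protein at the mRNA exit, read 3.98 and 3.53 in the controls, 3.74, 4.07 and 3.38 with TAT, and 3.27, 2.80 and 2.36 with gp120 on a probe across its start codon, a difference of -0.94 ± 0.34 (SE). All 3 gp120 arrays lay below all 5 other arrays. The 4 RefSeq probes between bases 174 and 353 gave -0.38 to -0.13, and the pair furthest downstream, at bases 1208 and 1213, gave 0.13 and 0.22. RPL24 at base 215 read 3.51 and 3.37, then 3.36, 3.51 and 3.42, then 3.14, 3.23 and 2.81, a difference of -0.38, opposite to the probe at base 490. RPL10A (-0.24), RPL31 (-1.35) and RPL10L (-1.36, or -0.63 with the letter as a block) complete the named probes. For the last 2, gp120 A was the array of 3 that was above background, so these differences include arrays that give only a bound.

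**Figure D3:**
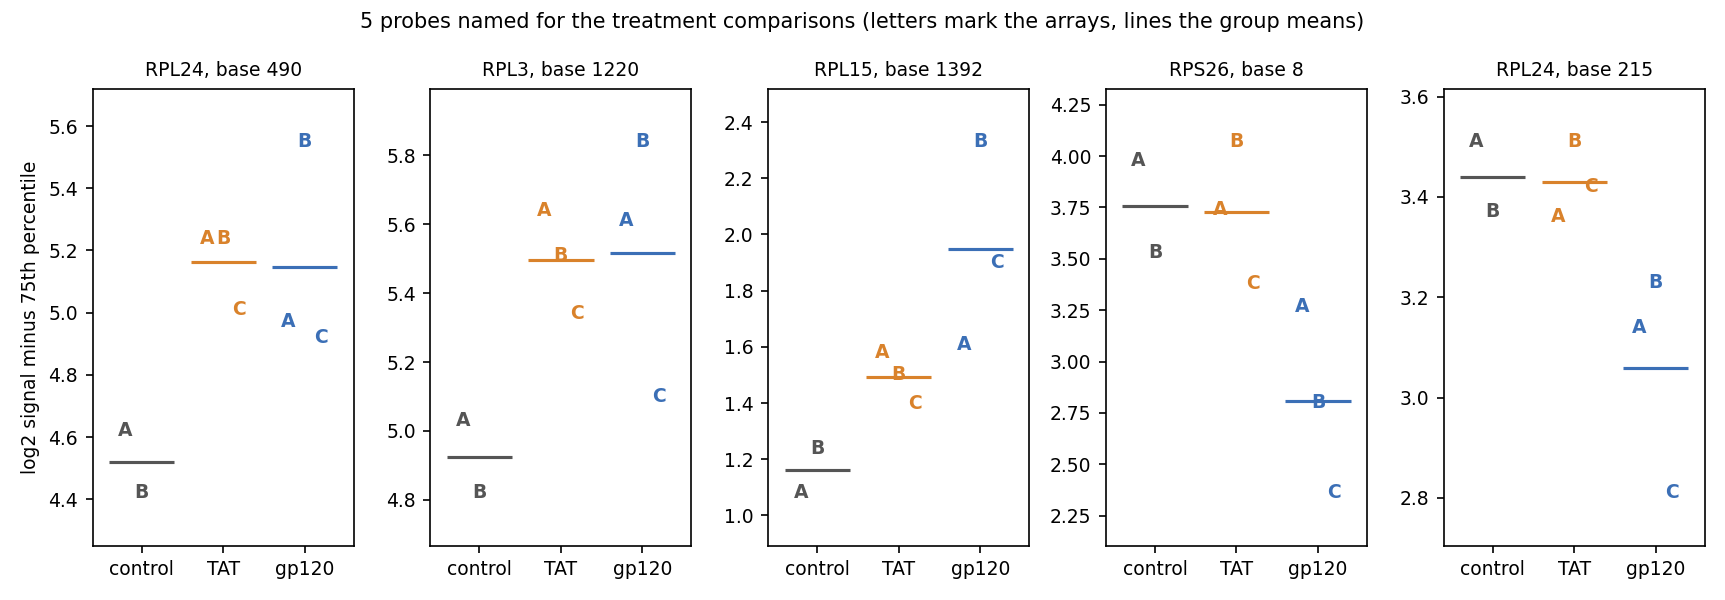
Levels of 5 probes (log2 signal minus the array's 75th percentile) on the 8 arrays, with each array shown by its letter and group means by lines. RPL24 at base 490 and RPL3 at base 1220 lie above both controls on all 6 treated arrays, and RPS26 and RPL24 at base 215 lie lowest on the 3 gp120 arrays.

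TAT and gp120 differed little from each other. Over the 274 probes the median of TAT minus gp120 was -0.03, with 116 higher and 158 lower (42.3% above 0, against 46.4% of all). Its sign depended on the scaling, since it was 0.00 to 0.04 under the median, quantile and normexp scalings. With limma 0 of 31589 probes passed an adjusted p of 0.05 (0%). An unadjusted p under 0.05 was found for 3 ribosomal protein probes (RPS26, RPL31 and RPL12, 3.92% of all probes) and for 9 with the letter as a block (10.1% of all). For RPL31 this rests partly on gp120 arrays that were not above background. Differences past 0.5 were found for 10 probes (3.65%, against 14.6% of all). The groups did not overlap for 17 probes (6.2%, against 7.88% of all), with TAT higher for 5 (all probes 3.51%) and lower for 12 (all probes 4.37%). The interval of a probe's difference reached a median of 0.61 to each side.

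The RPS26 probe at the start codon gave the smallest p, with TAT higher by 0.92 ± 0.30 (SE, adjusted p = 1 with limma). From its ATG it reads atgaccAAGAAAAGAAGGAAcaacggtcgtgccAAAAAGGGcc, with capitals for purine runs as above (chr5:61847562-61847884, minus strand, across exons). RPS23, which helps keep the decoding centre accurate, read 0.83, 0.92 and 1.29 with TAT and 0.40, 0.61 and 0.61 with gp120 on its probe at base 512, a difference of 0.48 ± 0.23 (SE), while its controls read 0.59 and 1.1. RPL24 at base 215 (0.37) and RPS13 (0.29) were higher with TAT without overlap, and RPL31 (1.47) and RPL34 (1.11) with overlap. On the RPL31 probe gp120 B and gp120 C were not above background, so its difference includes arrays that give only a bound. Lower with TAT were RPL12 (-0.54), RPL15 at base 1392 (-0.45), RPL27 (-0.33), RPS27 (-0.34) and RPS4X at base 696 (-0.21). Each of these came from a single probe of its gene.

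Arrays with the same letter gave opposite answers in A and B. In letter A, TAT was below control by a median of 0.22 (57 of 274 probes higher) and gp120 by a median of 0.36 (27 higher). In letter B, TAT was above control by 0.36 (223 higher) and gp120 by 0.60 (248 higher). The comparisons of a letter share 1 control array, and that array was the highest in A and the lowest in B. Large and small subunits moved alike in each pair, for instance by 0.55 and 0.72 for gp120 in letter B. TAT minus gp120 was 0.10 in A, -0.21 in B and -0.02 in C. Signs in A and B held under all 4 scalings, with sizes down to -0.07 and 0.24 for TAT and to -0.13 and 0.29 for gp120, and the sign in C did not hold. Each pair is 1 array against 1 array, and no test was possible.

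Letters A, B and C were also compared. With the group in the limma fit 4047 of 31589 probes (12.8%) passed an adjusted p of 0.05 between letters, and 5 of 274 ribosomal protein probes (1.82%) did. Within the brightest 10% 179 of 3159 probes (5.67%) passed, and 2 of 233 ribosomal protein probes (0.858%), RPSA and RPL22. RPL37A, a zinc-binding large-subunit protein, read 0.44, 0.40 and 0.37 on the letter A arrays of control, TAT and gp120, 1.92, 1.66 and 1.61 on the letter B arrays, and 2.14 and 1.77 on the letter C arrays (adjusted p = 0.00761 with limma). Letter A stood below every other array by more than 1. The probe lies at base 398, and the RPL37A probes at bases 166 and 324 had adjusted p-values of 0.200 and 0.354. RPL3 at base 1222, the probe with 3 extra bases, read 2.27, 1.76 and 1.11 in letter A and 2.86 to 3.44 elsewhere (adjusted p = 0.0376 with limma). RPSA, the laminin-binding small-subunit protein, read 2.99, 2.89 and 2.75 in letter A and 3.60 to 4.11 elsewhere at base 150 (adjusted p = 0.0398 with limma), and its probe at base 924 had an adjusted p of 0.743.

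RPL22, which binds small viral RNAs as well as the ribosome, was lower in letter C than in letter A by 1.03 ± 0.21 (SE, adjusted p = 0.0483 over letters with limma). It read 4.36, 4.84 and 4.49 in letter A, 3.71, 4.70 and 4.13 in letter B and 4.03 and 3.37 in letter C, so control B (3.71) was also below TAT C (4.03). Control A minus control B was 0.65 on this probe but -0.88 on the other tested RPL22 probe, whose SD over the arrays was wider (0.93 against 0.5). RPL10L is counted among the 5 (adjusted p = 0.00998 with limma), but TAT B, TAT C, gp120 B and gp120 C were not above background, so its call rests on arrays that give only a bound. RPL35A (0.0569), RPL39 (0.0580) and RPL15 at base 643 (0.0612) came next in adjusted p. The count of 5 was the same without either control. With 1 control left out, the other is alone in its group, so both fits rest on the treated arrays and are not separate checks. The count fell to 1 without TAT C or gp120 C, to 2 without TAT A or gp120 B and to 3 without TAT B or gp120 A. The count over all probes ranged from 1014 to 2493. All letter A arrays lay in row 1 of the slide and all letter C arrays in row 2. With the slide row as a block 0.365% of ribosomal protein probes (1) and 0.563% of all probes (178) passed, and with row 2 alone 0.73% and 0.845%, so the shares were then close.

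**Figure D4:**
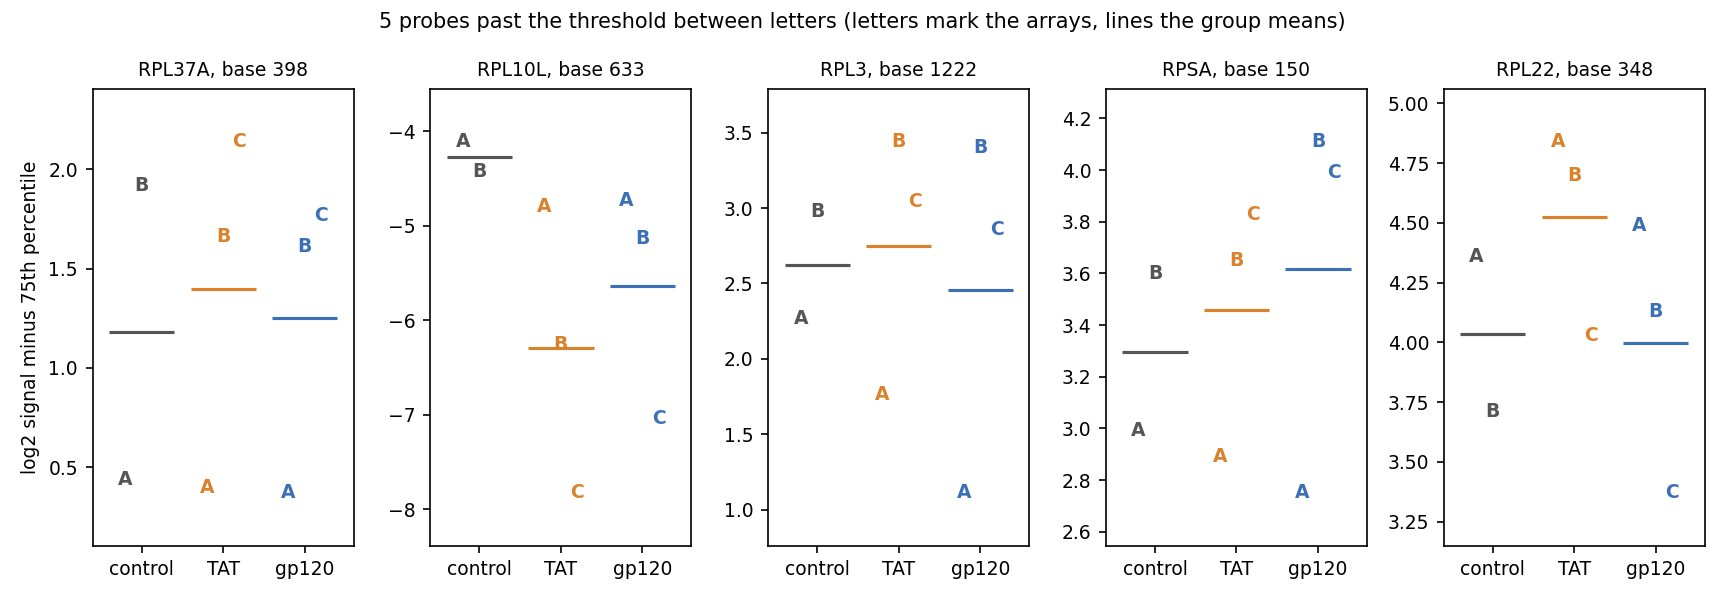
Levels of the 5 ribosomal protein probes past an adjusted p of 0.05 between letters (log2 signal minus the array's 75th percentile), with each array shown by its letter and group means by lines. RPL37A, RPL3 and RPSA are lowest on the letter A arrays, and RPL22 and RPL10L are low on the letter C arrays. RPL22 is also low in control B.

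Probes of 1 gene often disagreed. For TAT minus control 11 of the 71 genes with 2 or more probes were higher on every probe and 10 lower on every probe, and for gp120 minus control 18 and 6. The widest spans between probes were found for RPL28 (1.03 for TAT), RPL17 (0.95), RPS6 (0.85) and RPS27L (0.83), and for RPL31 (1.52 for gp120), RPL35A (1.45), RPL28 (1.22) and RPL34 (1.17). In each of these 7 genes save RPL17 and RPS6, the span includes a GenBank probe or one not above background on all arrays. RPL4, which lines the tunnel, was higher with gp120 on 4 of 5 probes (-0.10 to 0.37) and RPS2 on 5 of 5 (0.24 to 0.38). On all 5 RPL4 probes gp120 B was the highest array, with 5.96 against 5.03 to 5.64 at base 671. The gene mean of RPS2 deviated by 0.546 in gp120 B and -0.368 in control B. In gp120 A (-0.101) and gp120 C (0.077) it lay below control A (0.115). RPL13 ranged from -0.36 to 0.52 over 5 probes, RPL5 from -0.52 to 0.43 and RPS19 from -0.32 to 0.22. RPL10 (-0.05 to 0.16) and RPS3 (-0.01 to 0.25) had narrow spans. RPL11 has 1 tested probe, with 6.48 and 5.79 in the controls, 6.61, 6.63 and 6.32 with TAT and 6.33, 7.03 and 6.27 with gp120, and the groups overlapped.

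Probes that overlap in sequence moved more alike than probes far apart on the same transcript. For 69 overlapping pairs in 41 genes the SD over arrays of the difference between the probes had a median of 0.17, and for 274 pairs at least 60 bases apart it was 0.30. Of the overlapping pairs 35 were identical in the shared stretch (median 0.16) and 34 had 1 or more differing bases (median 0.18). The RPS6 pair shown above differed by an SD of 0.27, and both probes fell from control A to control B, by 2.01 and 2.52. The RPL3 pair was the widest, with an SD of 0.94: the probe at base 1220 was 0.21 higher in control A and the one at base 1222 was 0.71 lower. The RPL3 probe at base 1217, identical to the one at 1220 over 57 bases, was 0.82 higher in control A. RPL13 at bases 646 and 671 shared 35 identical bases and differed by an SD of 0.51. Of the 274 tested probes 41 share a word of 20 bases with an array probe of another name, so they may also read copies of the gene, which was not tested. Among them are the RPL17, RPL10A and RPS14 probes printed above and the RPS4X probe named for TAT minus gp120. The RPS4X probe named for TAT minus control shares its word with a probe named RPS4Y1.

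How far a probe swung between the controls went with its base content. Ribosomal protein probes were rich in purines, with a median of 33 among 60 bases against 28 for the other probes in the brightest 10%, and 64.2% of them against 34.2% had more than 30. For 233 ribosomal protein probes in the brightest 10%, the median deviation in control A minus that in control B was taken per class of purine content. This value was 0.44 with 26 to 30 purines (70 probes), 0.69 with 31 to 35 (91 probes) and 0.76 with 36 to 40 (53 probes). It was 0.39 for 8 probes with 25 or fewer and 1.18 for 11 probes with more than 40, both thin classes. The other bright probes showed a smaller rise, from -0.02 (794 probes) and 0.06 to 0.17, 0.24 and 0.52 (21 probes). Spearman's rho across probes, between purines and each probe's control A minus control B, was 0.39 for the ribosomal proteins and 0.19 for 2922 others. With the SD over all 8 arrays it was 0.46 and 0.08. For the number of adenines the values were 0.46 and 0.25 with the control difference and 0.51 and 0.03 with the SD. For GC content they were -0.29 and -0.08, and -0.33 and 0.07. These are descriptions: the probes share arrays, labelling and scanner, and probes of a gene share an mRNA. At each purine content the ribosomal protein probes lay above the other bright probes. With probes of at most 30 purines alone, the medians were -0.03 for TAT and 0.08 for gp120.

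**Figure D5:**
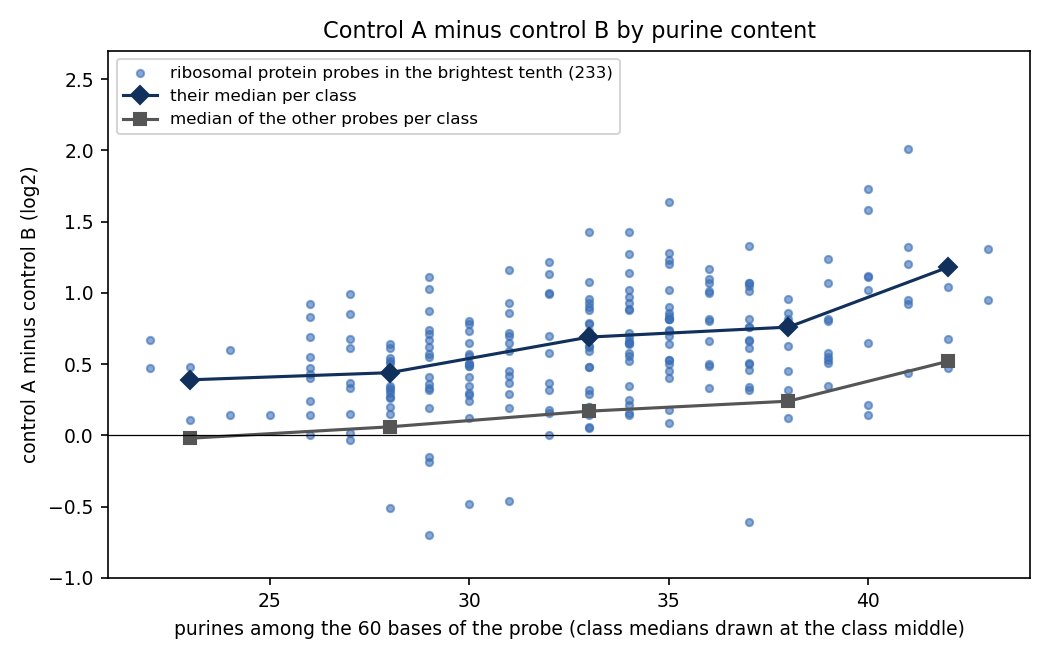
Control A minus control B (log2) against the number of purines among the 60 bases of the probe, for 233 ribosomal protein probes in the brightest 10% (points). Diamonds join, over 5 classes of purine content, their median deviation in control A minus that in control B. Squares give the same for the other probes in the brightest 10%. Both lines rise, from 0.39 to 1.18 and from -0.02 to 0.52.

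Position along the transcript also went with the arrays in the ribosomal protein genes. Other genes were not compared in this way, so whether this is particular to these mRNAs was not tested. In 41 genes with RefSeq probes at least 150 bases apart, the most upstream probe was compared with the most downstream one. Relative to the probes' own means, the upstream probe was higher by a median of 0.15 in control A (29 of 41 genes) and 0.08 in control B. In TAT A, B and C the median was 0.00, 0.02 and 0.07, and in gp120 A it was 0.01. In gp120 B and gp120 C, the arrays of the other scan, the upstream probe was lower, with medians of -0.19 (29 of 41 genes below 0) and -0.16 (24 of 41). RPS26 is among these 41 genes and not a further example. Its upstream minus downstream value was -0.50 in gp120 B and -0.49 in gp120 C, but 0.49 in gp120 A and -0.26 in control B. The RPS26 start-codon probe, named above for its low values with gp120, was lowest in gp120 C and gp120 B. In gp120 A, of the same scan as the controls, it also lay below every control and TAT array. The part of the scan in these values was not tested.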

How the data were processed

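Each of 8 samples was measured on a one-colour 8x60k bovine array. The deposited intensity values are processed signals from Agilent Feature Extraction 11.5.1.1 (protocol GE1_1105_Oct12, build HGSC Btau_3.1), already background-subtracted, per the file headers. The authors also deposited a table of log2 values per gene name, used as an alternative: its column medians were -3.20 and -3.30 (controls A and B), -3.26, -3.21 and -3.25 (TAT A to C) and -3.25, -3.18 and -3.33 (gp120 A to C), each column has its 75th percentile at 0, and how probes were merged to genes is not known here. From the intensities, log2 signal minus each array's 75th percentile was computed here, control spots and outlier flags were left out and spots of a probe were averaged. Probes for which all arrays of some group were well above background were fitted in limma (version 3.58.1, R version 4.3.3) by lmFit followed by eBayes, with group as the term over the 8 arrays, and p-values were adjusted by Benjamini-Hochberg over all 31589 tested probes. Letters were tested by an F test with the group in the fit. Arrays of the same letter deviated together over all tested probes (correlations of 0.32 to 0.70 over 7 pairs, against -0.59 to 0.40 over 14 pairs of different letters). Deviations are from group means, so with 2 controls each value of control B mirrors that of control A, and control B correlated more with TAT C (0.40) than with TAT B (0.32). Between TAT and gp120 arrays same letters gave 0.65, 0.43 and 0.70 and different letters -0.57 to -0.07. Since every same-letter pair was above 0.1, the letter was also fitted as a block. Sequences and figures were handled in Python 3.11.15. The fit was tested on simulated data.

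Named probes were those with the smallest p, up to 6 genes per direction and treatment comparison, first among probes whose groups do not overlap, up to 8 genes for letters, a fixed set of 16 genes with well-known roles, up to 4 genes with the widest disagreement between probes, and genes with no probe above background. RPL39L has no probe under that name and was not analysed here. 1 gene that the rule names is not reported here by name, though the counts and medians include it. The members and lists were chosen with earlier results of these data known. Alternatives were other scalings and background corrections, the deposited table, other filters, 1 value per gene, slide row, scan and letter as blocks, each row or scan alone, eBayes with trend and robust, and leaving out each array. 2 more, RefSeq probes only and probes with at most 30 purines, were chosen after seeing the data.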

Additional observations from a re-analysis of the deposited data

How the results depend on the processing

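In the 3 treatment comparisons 0 ribosomal protein probes passed an adjusted p of 0.05 under any alternative run, eBayes with trend and robust included. Over all features, limma called 4, 3 and 15 gene names for TAT, gp120 and TAT against gp120 in the deposited table, and 0 to 1 probes for TAT and for gp120 when 1 array was left out. With the replicate block (letter) the member medians were 0.06, 0.10 and -0.03, and no adjusted call changed. With letter and scan together the median was 0.27 for TAT minus gp120 and -0.21 for gp120. Leaving out 1 array gave -0.27 to 0.29 for TAT, -0.21 to 0.33 for gp120 and -0.10 to 0.10 for TAT minus gp120, the first 2 set by the controls.

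The 5 ribosomal protein probes called between letters (1.82%, against 12.8% of all probes) became 9 with normexp and quantile (3.28%, against 12.8%). With trend and robust 10 passed (3.65%, against 18.4%) and with the scan block 3 (1.09%, against 4.94%). The count was 2 with no filter (0.678%, against 3.81%), the brightest probe per gene (2.56%, against 15.5%), row 2 alone (0.73%, against 0.845%) or at most 30 purines (2.04%, against 12.8%). It was 1 in the deposited table (1.28%, against 7.85%), with the mean per gene (1.28%, against 15.3%) or the slide row block (0.365%, against 0.563%). Fewer members were tested per gene, in the deposited table and with at most 30 purines, so these counts do not compare directly. Scan 2 alone gave 0 (0.26% of all probes passed). Leaving out 1 array gave 1 to 5 (0.365% to 1.82%, against 3.21% to 7.89% of all probes). The count over all probes, 4047, became 4044 with normexp and quantile, 5826 with trend and robust, 1522 in the deposited table, 1955 with no filter, 178 with the row block, 1560 with the scan block, 82 with scan 2 alone, 267 with row 2 alone and 1014 to 2493 with 1 array left out. The cause was not tested where fewer samples do not account for it. The letter F test was not run with the letter as a block, and rows alone lack some comparisons. The number of arrays limits the precision, and probes near background have only bounds.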

Other observations

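Other mRNAs of the translation apparatus were less split between the controls than the ribosomal proteins, whose median was 0.55 for control A minus control B. The elongation factors and other mRNAs with a terminal oligopyrimidine tract (10 genes, 46 tested probes) had a median of 0.45. The initiation factors (32 of 34 listed genes, 91 probes) had 0.20, the ribosome assembly factors (59 of 62 genes, 132 probes) 0.21, and the TOR and S6 kinase genes (18 of 20, 40 probes) 0.24. RNA polymerase I (19 genes, 35 probes) had 0.15. The differences between these lists were not tested.

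The mitochondrial ribosomal proteins, which build the separate ribosome of that organelle, went the other way between the controls, with a median of -0.15 over 134 probes of 75 genes for control A minus control B, and control B was also the higher array under the other 3 scalings. With TAT their median difference from control was -0.05 (54 probes higher, 80 lower), or -0.11 with the letter as a block. On all 3 TAT arrays 20 of 134 probes were below both controls and 3 above, where 9.1% and 5.22% of all tested probes were. Between letters 10 of their 134 probes (7.46%) passed an adjusted p of 0.05 with limma, against 12.8% of all tested probes. In the 3 treatment comparisons limma called 0 probes of any of these lists at an adjusted p of 0.05. For TAT minus control the assembly factors had a median of -0.12 (37 higher, 95 lower) and the initiation factors -0.08 (27 higher, 64 lower), against -0.03 over all tested probes and -0.07 over the other probes in the brightest 10%. With the letter as a block these were -0.07 and -0.04, against -0.04 over all tested probes.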
